A study of Mus musculus with 12 samples.

Results

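Glucose uptake, glycolysis and glycogen metabolism were followed through 34 genes in whole mouse hearts, from the glucose transporters to lactate export, the pyruvate dehydrogenase step and glycogen. The genes were taken by name: a probe belonged when the array's gene name, or an older synonym such as Pkm2 for Pkm, was on the list. Of the 34 genes, 33 had a probe under their name (57 probes), and all 33 were among the 18259 genes tested. Gapdh was the exception. 3 probes under other names, MGC68323, LOC380687 and LOC14433, were taken to read Gapdh or copies of it. They gave genotype differences of 0.038, 0.024 and 0.34 (log2) at 1 month and of -0.024, -0.068 and -0.12 at 2 months. LOC380687 and LOC14433 were placed on chromosome 6, where RefSeq holds Gapdh, and MGC68323 on chromosome 1. Which of the probes read Gapdh itself was not checked, and they were not counted.

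RNA was measured on single-colour Agilent arrays in 12 hearts of male C57BL/6 mice, 3 per group. In cardioGRMRdKO mice, floxed alleles of the glucocorticoid receptor (GR, Nr3c1) and mineralocorticoid receptor (MR, Nr3c2) are recombined by an αMHC-Cre transgene, expressed in cardiomyocytes; the Cre-negative littermates (dflox) had both floxed alleles. Mice of either genotype were 1 or 2 months old. Cre came only with receptor loss, so these cannot be told apart, and in whole hearts fewer cells of a type and less RNA per cell cannot be told apart either.

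A heart oxidises mostly fatty acids and can turn to glucose, which enters through GLUT1 (Slc2a1) and the insulin-responsive GLUT4 (Slc2a4) and is trapped as glucose 6-phosphate by hexokinases. Phosphofructokinase commits it to glycolysis, under the control of fructose 2,6-bisphosphate, which the Pfkfb enzymes both make and break down. Pyruvate then becomes lactate or enters mitochondria through pyruvate dehydrogenase, whose kinases (Pdk) switch it off, and spare glucose is stored as glycogen.

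The gene with the largest difference, Pfkfb1, lies on chromosome X and was read by 1 probe, at chrX:145402403-145402462 on the + strand of build mm7. RefSeq lists 4 start sites for it, and the windows from 250 bases before to 50 bases after each are shown because this gene carries the main result. They are on GRCm38.p6, and no letters are in capitals because neither motif searched was found in them.
Pfkfb1 start 1, chrX:150587195-150587494, + strand: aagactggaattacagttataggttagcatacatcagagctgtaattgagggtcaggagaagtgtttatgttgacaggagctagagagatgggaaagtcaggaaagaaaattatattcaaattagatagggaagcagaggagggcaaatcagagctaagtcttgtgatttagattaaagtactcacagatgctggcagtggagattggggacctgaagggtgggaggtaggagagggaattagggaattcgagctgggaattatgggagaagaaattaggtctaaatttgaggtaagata
Pfkfb1 start 2, chrX:150587993-150588292, + strand: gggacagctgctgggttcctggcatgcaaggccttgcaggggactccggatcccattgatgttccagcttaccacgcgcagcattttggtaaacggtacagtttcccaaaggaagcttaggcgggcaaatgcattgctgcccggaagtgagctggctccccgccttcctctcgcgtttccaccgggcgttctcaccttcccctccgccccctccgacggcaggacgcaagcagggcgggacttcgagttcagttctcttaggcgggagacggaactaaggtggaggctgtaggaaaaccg
Pfkfb1 start 3, chrX:150589666-150589965, + strand: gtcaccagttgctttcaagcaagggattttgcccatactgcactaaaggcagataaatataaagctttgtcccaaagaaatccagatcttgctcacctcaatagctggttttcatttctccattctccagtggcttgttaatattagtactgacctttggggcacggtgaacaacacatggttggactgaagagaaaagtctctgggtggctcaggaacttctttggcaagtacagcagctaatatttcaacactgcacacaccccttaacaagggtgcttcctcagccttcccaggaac
Pfkfb1 start 4, chrX:150594178-150594477, + strand: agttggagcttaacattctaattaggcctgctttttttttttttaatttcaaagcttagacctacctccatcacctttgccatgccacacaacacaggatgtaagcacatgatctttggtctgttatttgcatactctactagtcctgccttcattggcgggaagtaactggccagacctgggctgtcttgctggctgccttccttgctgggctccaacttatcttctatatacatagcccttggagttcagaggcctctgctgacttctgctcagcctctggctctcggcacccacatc
The motifs were the receptor half-site AGAACA and the E-box CACGTG, on both strands. AGAACA was in 19.2% of the 52 windows that RefSeq holds for 33 of the 34 genes and in 19% of all 32851 windows of that length. These are not the 33 measured genes: Gapdh is among them and Slc2a4 is not. CACGTG was in 11.5% of the genes' windows and 7.15% of all. The full site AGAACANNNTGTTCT was in 0 of the 52 windows and in 0.00913% of all. These are letter matches in a short window and say nothing of receptor binding.

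Levels are log2 intensities relative to the 75th percentile of the same array, so 0 is a fairly bright probe. The labels were checked first. Nr3c1 was lower in cardioGRMRdKO hearts by 1.10 (log2, SE 0.14) at 2 months, with 3 hearts a group (limma, adjusted p = 0.0057), and the difference at 1 month, from the 2 hearts of each genotype with a value, was -0.73 (adjusted p = 0.12). Nr3c2 was dim and its difference was 0.06 at 1 month and -0.46 at 2 months (adjusted p = 1.00 and 0.65). Between 63.7 and 71.9% of transcript spots were well above background on each array. One cardioGRMRdKO heart at 2 months, replicate 3, had a mean cardiomyocyte marker level of 6.72 against 7.16 to 7.48 in the other 11 hearts. Airway epithelium markers (14 of 15 listed were measured) averaged 0.24 to 1.46 in the 1-month dflox hearts and -4.28 to -2.56 in the 1-month cardioGRMRdKO hearts, and were mixed within both 2-month groups (-4.16 to 1.75 in dflox, -4.26 to 1.34 in cardioGRMRdKO). All 1-month dflox arrays were at the outer places of their slides and all 1-month cardioGRMRdKO arrays at the inner places, which leaves genotype confounded with place at 1 month: the 2 cannot be told apart.

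**Figure D1:**
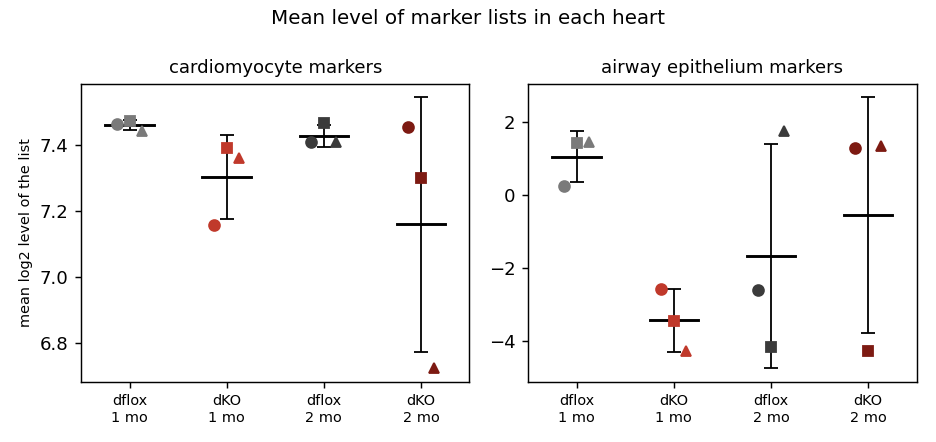
Mean log2 level of the cardiomyocyte markers (left) and airway epithelium markers (right) in each heart, by group; circles, squares and triangles are replicates 1, 2 and 3, lines are the mean and SD (n = 3), and dKO is cardioGRMRdKO. The airway markers of the 1-month groups do not overlap, and the lowest cardiomyocyte value, 6.72, is cardioGRMRdKO 2 month replicate 3.

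Of the glucose genes, 1 was called between cardioGRMRdKO and dflox hearts: Pfkfb1 was lower at both ages. The other 32 genes did not pass the test at either age. At 1 month 1 of 33 genes was called (0.98% of all genes tested were called) and at 2 months 1 of 33 (2.31% of all genes). The median difference over the 33 genes was -0.055 at 1 month and -0.090 at 2 months (log2), beside -0.001 and -0.095 over all genes. Under quantile normalization the 2-month median turned to 0.058, beside -0.019 over all genes. The 95% interval of a median glucose gene, before any adjustment, reached 0.31 (log2) to either side of its difference, and a call over all genes needed a larger one, so a gene that missed the threshold is not shown to be unchanged. The hearts of the 2 genotypes did not overlap for 7 of the 31 genes with all values at 1 month (18.6% of all genes) and for 3 of 32 at 2 months (17.6% of all genes).

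**Figure D2:**
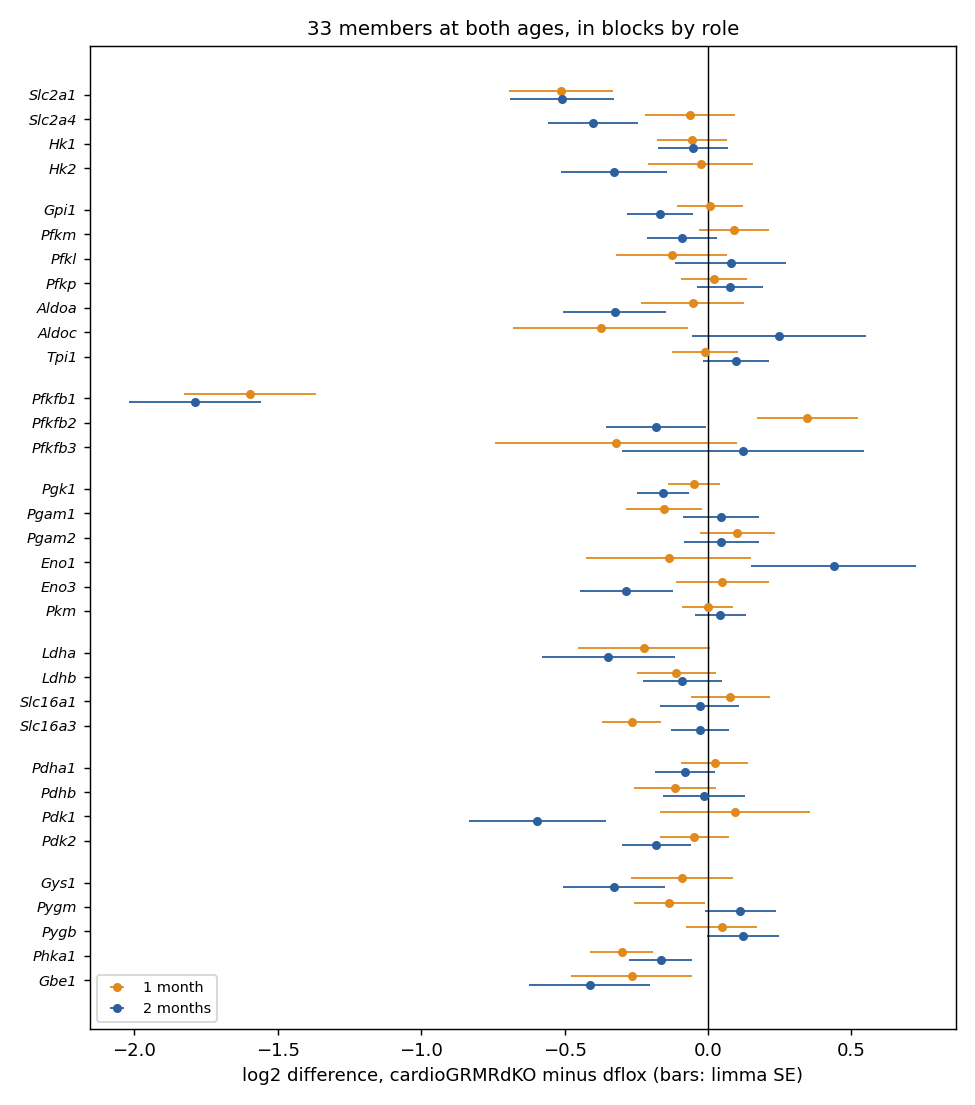
Log2 difference between cardioGRMRdKO and dflox hearts for 33 genes at 1 month (orange) and 2 months (blue), in blocks by role, with limma's SE as bars. Pfkfb1 lies at -1.60 and -1.79, and the other genes lie between -0.60 and 0.44.

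Glucose entry came first. Slc2a1, which encodes the widely expressed transporter GLUT1, had levels of 1.49, 1.33 and 1.35 in dflox and 1.13, 0.73 and 0.78 in cardioGRMRdKO hearts at 1 month, and 1.30, 1.40 and 1.50 against 1.14, 1.08 and 0.45 at 2 months. Every cardioGRMRdKO heart was below every dflox heart of its age. The difference was -0.51 (SE 0.18) at 1 month and -0.51 (SE 0.18) at 2 months, and averaged over both ages it missed the threshold (-0.51, SE 0.13, limma adjusted p = 0.054; 4.5% of all genes were called in this comparison). It passed in 7 of 25 other analyses, among them that with the slide as a fixed term (adjusted p = 0.038) and those without cardioGRMRdKO 1 month replicate 1, 2 month replicate 1 or 2 month replicate 3. Without cardioGRMRdKO 2 month replicate 3 the 2-month difference was -0.29.

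Slc2a4, which encodes GLUT4, the main transporter of the adult heart, differed little at 1 month: 6.30, 6.21 and 6.12 in dflox and 6.01, 6.22 and 6.20 in cardioGRMRdKO hearts (difference -0.06, 95% interval -0.41 to 0.29). At 2 months the levels were 6.36, 6.32 and 6.55 in dflox and 6.13, 6.26 and 5.64 in cardioGRMRdKO hearts. The groups did not overlap, but the difference of -0.40 (adjusted p = 0.26) was -0.22 without the third cardioGRMRdKO heart. Hk1, the constitutive hexokinase, was at 5.42, 5.37 and 5.20 against 5.16, 5.34 and 5.33 at 1 month and at 4.99, 5.22 and 5.36 against 5.18, 5.23 and 5.01 at 2 months. Hk2, the insulin-regulated hexokinase of muscle, was at 5.22, 5.19 and 4.92 against 5.07, 5.06 and 5.12 at 1 month. At 2 months it was at 5.19, 5.67 and 5.59 against 5.37, 5.35 and 4.75, and the groups overlapped. Both hexokinases overlapped between genotypes at both ages, with differences from -0.33 to -0.03. The 2-month difference of Hk2, -0.33, was -0.12 without the third cardioGRMRdKO heart. The 4 other Hk1 probes that passed the filter, all dimmer, gave -0.22 to -0.01 at 1 month and -0.47 to 0.41 at 2 months. A further Hk1 probe was well above background on 0 arrays and did not pass.

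Pfkfb1, one of 3 measured enzymes that set fructose 2,6-bisphosphate, was at 1.02, 1.07 and 0.89 in dflox hearts and at -1.01, -0.38 and -0.41 in cardioGRMRdKO hearts at 1 month. At 2 months it was at 1.90, 1.38 and 2.02 in dflox and at 0.25, -0.40 and 0.08 in cardioGRMRdKO hearts. The genotypes did not overlap at either age. The difference was -1.60 (SE 0.23, limma adjusted p = 0.0091) at 1 month and -1.79 (SE 0.23, adjusted p = 0.0030) at 2 months, with n = 3 a group, and -1.69 (SE 0.16, adjusted p = 0.00024) over both ages. Within slides it was -1.41 and -1.39 at 1 month and -1.82 and -2.10 at 2 months. The 1-month call was lost with the airway marker level as a covariate (-1.25, adjusted p = 0.16) and with the place on the slide as a term (-1.62, adjusted p = 0.23), both of which run with genotype at that age; the 2-month call was kept in all 25 other analyses (differences from -1.98 to -1.60). The analysis without slide 3 (-1.73) left 1 dflox heart at 2 months. The difference of the genotype effects between the ages was -0.19 (SE 0.33, adjusted p = 0.94). Most skeletal muscle markers moved the same way, with 11 of 14 measured below 0 at 1 month and 10 of 14 at 2 months. Over all genes, 49.7% were above 0 at 1 month and 37% at 2 months. At 1 month 1 marker was called higher and 0 lower (0.98% of all genes were called), and at 2 months 0 were called. In the average 1 was called higher and 4 lower (4.5% of all genes were called). The mean level of these markers was 0.56 to 0.81 in dflox and 0.27 to 0.59 in cardioGRMRdKO hearts at 1 month, and 0.54 to 0.89 against 0.40 to 0.51 at 2 months. Their part in this result, and in those of other muscle genes, was not tested.

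The 2 other measured enzymes of this step were not called. Pfkfb2, the isoform known as the cardiac one, was at 0.34, 0.54 and 0.73 in dflox and 1.03, 0.89 and 0.74 in cardioGRMRdKO hearts at 1 month, a difference of 0.35 (adjusted p = 0.63) without overlap. At 2 months the levels of 0.82, 1.20 and 0.66 and of 0.61, 0.98 and 0.55 overlapped. Its 4 probes gave 0.13 to 0.44 at 1 month and -0.44 to 0.07 at 2 months. Pfkfb3, the inducible isoform, varied widely, from 0.24 to 1.73 over the 2-month hearts, and its differences were -0.32 and 0.12.

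**Figure D3:**
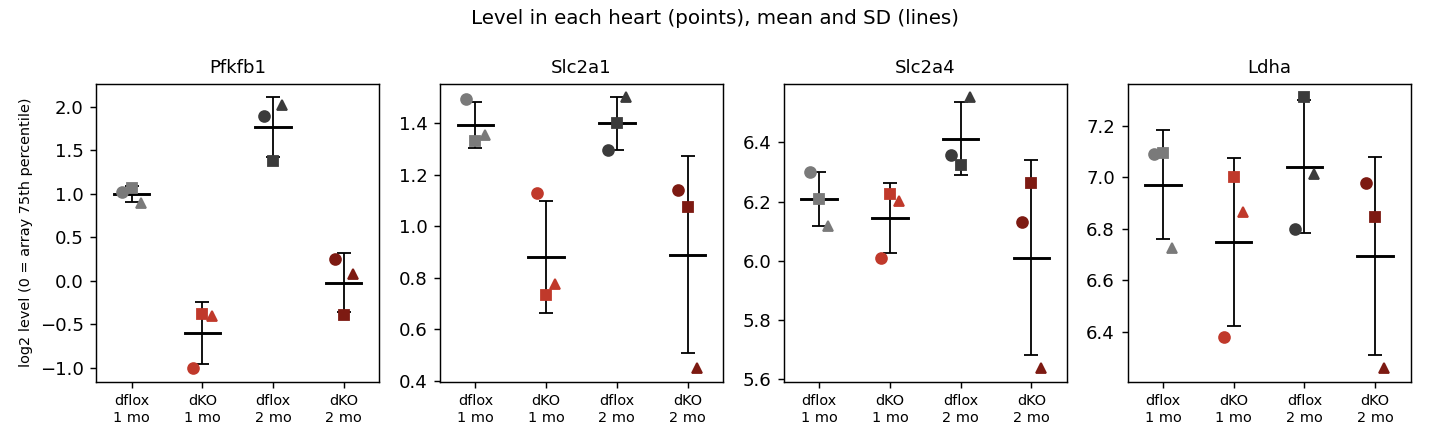
Log2 level of Pfkfb1, Slc2a1, Slc2a4 and Ldha in each heart, by group, with mean and SD (n = 3); circles, squares and triangles are replicates 1, 2 and 3, and dKO is cardioGRMRdKO. Pfkfb1 and Slc2a1 do not overlap between genotypes at either age, and replicate 3 of the 2-month cardioGRMRdKO group is the lowest heart for Slc2a1, Slc2a4 and Ldha.

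The 7 genes of the upper part of glycolysis had differences from -0.37 to 0.09 at 1 month and from -0.33 to 0.25 at 2 months, and 0 were called. Pfkm, the muscle phosphofructokinase, was at 6.80, 6.67 and 6.78 against 6.82, 6.85 and 6.84 at 1 month and at 7.06, 6.88 and 7.01 against 7.13, 6.89 and 6.65 at 2 months. Its difference was 0.09 and then -0.09, with 95% intervals of -0.18 to 0.36 and -0.36 to 0.18. Pfkp, the platelet-type phosphofructokinase, differed by 0.02 and 0.08, and Gpi1, Pfkl, Aldoa, Aldoc and Tpi1 overlapped between genotypes at both ages. The probes of Gpi1, glucose 6-phosphate isomerase, disagreed at 2 months: the brighter gave -0.17 and the dimmer -1.01, where both were near 0 at 1 month (0.01 and 0.03).

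The 6 measured genes of the lower part, from Pgk1 to Pkm, had differences from -0.15 to 0.10 at 1 month and from -0.28 to 0.44 at 2 months, and 0 were called. Pkm, pyruvate kinase, differed by 0.00 (95% interval -0.20 to 0.20) and 0.04 (-0.15 to 0.24). Eno1 had the largest positive average, at 0.30, 0.46 and 0.51 against 0.04, 0.47 and 0.34 at 1 month and at -0.01, -0.27 and 0.40 against 0.52, -0.18 and 1.11 at 2 months. These hearts overlapped, and without the third cardioGRMRdKO heart the 2-month difference fell from 0.44 to 0.13. Pgam2, the muscle phosphoglycerate mutase, and Eno3, the muscle enolase, overlapped at both ages. Pgam1 did not overlap at 1 month, at 4.34, 4.36 and 4.37 against 4.03, 4.26 and 4.32 (difference -0.15, adjusted p = 0.93).

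Lactate handling showed no called gene. Ldha was at 7.09, 7.10 and 6.73 against 6.38, 7.001 and 6.87 at 1 month and at 6.80, 7.31 and 7.01 against 6.98, 6.84 and 6.26 at 2 months. The differences of -0.22 and -0.35 had overlapping hearts, the second was -0.13 without the third cardioGRMRdKO heart, and a second probe gave -0.06 and -0.04. Ldhb, the heart-type subunit, was at 8.38, 8.27 and 8.09 against 8.04, 8.30 and 8.07 at 1 month and at 8.28, 8.02 and 8.02 against 8.24, 7.95 and 7.85 at 2 months. Slc16a1, a lactate transporter (MCT1), differed by 0.08 and -0.03, and its 2 other probes by 0.35 and 0.24 at 1 month and by -0.08 and 0.22 at 2 months. Slc16a3 (MCT4), the exporter of glycolytic cells, was at -0.01, -0.04 and -0.19 against -0.30, -0.39 and -0.35 at 1 month, without overlap (difference -0.27, adjusted p = 0.40), and overlapped at 2 months.

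At the pyruvate dehydrogenase step, Pdha1 and Pdhb, its E1 subunits, differed by 0.02 and -0.12 at 1 month and by -0.08 and -0.01 at 2 months. A second probe gave larger differences for both, -0.22 and -0.26 for Pdha1 and -0.15 and -0.47 for Pdhb at 1 and 2 months. Pdk1 lacked a value in 3 hearts, 1 of them at 2 months. Its 2-month levels were 3.97, 4.01 and 4.16 in dflox and 3.88 and 3.02 in cardioGRMRdKO hearts, a difference of -0.60 (limma adjusted p = 0.29). Without the lower heart, replicate 3, the difference was -0.17 and rested on 1 cardioGRMRdKO heart. A second Pdk1 probe with all values gave -0.12 and -0.41. Pdk2 differed by -0.05 and -0.18.

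The 5 glycogen genes among the 33 differed by -0.30 to 0.05 at 1 month and by -0.41 to 0.12 at 2 months, and 0 were called. Without the third cardioGRMRdKO heart the 2-month difference of Gys1 went from -0.33 to -0.51 and that of Gbe1 from -0.41 to -0.22. Gys1, muscle glycogen synthase, was at 0.76, 0.31 and 0.51 against 0.32, 0.58 and 0.41 at 1 month and at 0.97, 0.85 and 1.07 against 0.60, 0.30 and 1.00 at 2 months, with overlap at both ages. Pygm, muscle glycogen phosphorylase, was at 3.93, 4.18 and 4.07 against 3.97, 3.90 and 3.90 and then at 4.15, 4.20 and 4.08 against 4.21, 4.05 and 4.51. Pygb, the brain-type phosphorylase, differed by 0.05 and 0.12. Gbe1, the branching enzyme, was at 4.13, 4.30 and 3.83 against 3.70, 3.90 and 3.86 at 1 month and at 3.88, 4.17 and 4.49 against 4.10, 3.82 and 3.38 at 2 months (average -0.34, adjusted p = 0.27).

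Phka1, the muscle regulatory subunit of phosphorylase kinase, was dim, at -3.09, -2.88 and -3.03 against -3.18, -3.32 and -3.41 at 1 month. The hearts did not overlap there (difference -0.30, adjusted p = 0.36) and did at 2 months. Its probe lies at chrX:97844833-97848149 on the - strand of mm7, a stretch of 3317 bases for 60 bases of probe, and is shown because its coordinates bridge a gap of the genome, as those of a spliced transcript do.
Phka1 probe: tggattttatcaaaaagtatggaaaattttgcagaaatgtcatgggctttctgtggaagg

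With age, 0 of 33 genes were called in dflox hearts (0.553% of all genes were) and 0 of 33 in cardioGRMRdKO hearts (0.378% of all genes). The ages did not overlap for 7 of 32 genes in dflox hearts (20% of all genes) and for 5 of 31 in cardioGRMRdKO hearts (18% of all genes). By the brightest probe of each gene, the largest rise in dflox hearts was that of Pfkfb1, 0.77 (SE 0.23, adjusted p = 0.17), without overlap. The rise of Pfkfb1 was 0.58 (adjusted p = 0.33) in cardioGRMRdKO hearts. Some dimmer probes rose more in dflox hearts. That of Gpi1 rose by 0.99, where the brighter gave 0.04, and the probes of Pfkfb2 gave 0.30 to 0.84 (0.36 for the brightest). Gys1 differed by 0.44 in dflox hearts without overlap, and Hk2 by 0.38 and Pdk1 by 0.57, of which Hk2 overlapped. Slc16a3, at -0.68, -0.48 and -0.37 in 2-month dflox hearts, was below the 1-month hearts (difference -0.43, adjusted p = 0.087). Pfkp was at 1.58, 1.46 and 1.26 at 1 month and 1.12, 1.01 and 0.97 at 2 months in dflox hearts (difference -0.40, adjusted p = 0.16), and the ages did not overlap in cardioGRMRdKO hearts either (-0.34). The difference of the genotype effects between the ages was called for 0 of 33 genes and 0 of 18259 genes (0%) by limma, and 644 of all genes (3.53%) had an unadjusted p under 0.05, as did 0 of the 33.

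Around these genes, 137 measured genes of neighbouring lists (144 listed) were followed, among them those of fructose and sorbitol handling. Khk, the ketohexokinase that makes fructose 1-phosphate, was at 2.26, 2.32 and 2.29 against 1.96, 1.94 and 2.04 at 1 month and at 2.55, 2.64 and 2.60 against 2.29, 2.04 and 1.91 at 2 months. It was lower at 2 months (difference -0.52, adjusted p = 0.033) and on average (-0.41, adjusted p = 0.011). A second probe gave -0.39 and -0.23, and the 2-month call held in 7 of 25 other analyses. It was lost, among others, under normexp background correction (-0.33, adjusted p = 0.32) and with the mean of its probes (-0.38, adjusted p = 0.16). It was also lost without slide 3 (-0.46), a fit that leaves 1 dflox heart at 2 months. It held in 1 of the 12 analyses that left out a heart (without cardioGRMRdKO 2 month replicate 1). Sord, the sorbitol dehydrogenase that makes fructose, was at 3.22, 3.46 and 3.43 against 2.97, 3.12 and 3.03 at 1 month and at 3.82, 3.86 and 3.81 against 3.03, 3.07 and 3.44 at 2 months (2-month difference -0.65, adjusted p = 0.024; average -0.49, adjusted p = 0.010). Its 2-month call held in 14 of 25 other analyses. It was lost with the slide or the place as a fixed term (adjusted p = 0.059 and 0.052) and without the filter on dim probes (adjusted p = 0.071). Quantile normalization (-0.53, adjusted p = 0.17) and normexp (-0.56, adjusted p = 0.11) also lost it. So did the fit without slide 3 (-0.58, 1 dflox heart at 2 months), and leaving out any 2-month heart but cardioGRMRdKO replicate 3. The genotypes did not overlap for either gene at either age. In the list of 13 glucose transport and sugar genes, 2, Khk and Sord, were called lower and 0 higher at 2 months (2.31% of all genes were called), and 0 at 1 month (0.98% of all genes); Tbc1d1, a Rab GTPase-activating protein of GLUT4 traffic, was called in the average alone (-0.42, adjusted p = 0.029), which held in 8 of 25 other analyses.

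Fbp2, the muscle fructose 1,6-bisphosphatase, which runs against phosphofructokinase, was at 0.21, 0.57 and 0.49 against -0.68, -0.04 and -0.13 at 1 month and at 0.84, 0.96 and 1.19 against -0.06, -0.10 and 0.09 at 2 months. It was lower at 2 months (-1.02, SE 0.18, adjusted p = 0.015), and the 1-month difference of -0.71 missed the threshold (adjusted p = 0.13). The 2-month call held in 20 of 25 other analyses. It was lost without dflox 2 month replicates 2 or 3 or cardioGRMRdKO 2 month replicates 1 or 2 (-1.10 to -0.92 over all hearts left out). It was also lost without slide 3 (-0.82), a fit with 1 dflox heart at 2 months. Fbp2 was read by 1 probe, placed at chr13_random:833188-1460212 on the + strand of mm7. That is a stretch of 627025 bases for 60 bases of probe. Its probe and the window at its start site are shown, with the E-box in capitals. The window is chr13:62858351-62858650 on the - strand of GRCm38.p6.
Fbp2 probe: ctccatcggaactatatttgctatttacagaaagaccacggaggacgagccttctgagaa
Fbp2 start: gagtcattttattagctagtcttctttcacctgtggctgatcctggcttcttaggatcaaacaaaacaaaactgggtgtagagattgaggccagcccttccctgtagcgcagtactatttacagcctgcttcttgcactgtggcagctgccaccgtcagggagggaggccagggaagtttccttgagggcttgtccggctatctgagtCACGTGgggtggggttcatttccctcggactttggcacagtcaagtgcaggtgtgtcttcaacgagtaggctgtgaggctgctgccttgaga
Of the 15 measured genes in the list of other glycolytic enzymes, 0 were called by limma at 1 month (1 at an unadjusted p under 0.05), and 1, Fbp2, was called lower at 2 months, against 0.98% and 2.31% of all genes called. Pfkfb4, the fourth enzyme of the fructose 2,6-bisphosphate family, differed by 0.17 and 0.02.

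**Figure D4:**
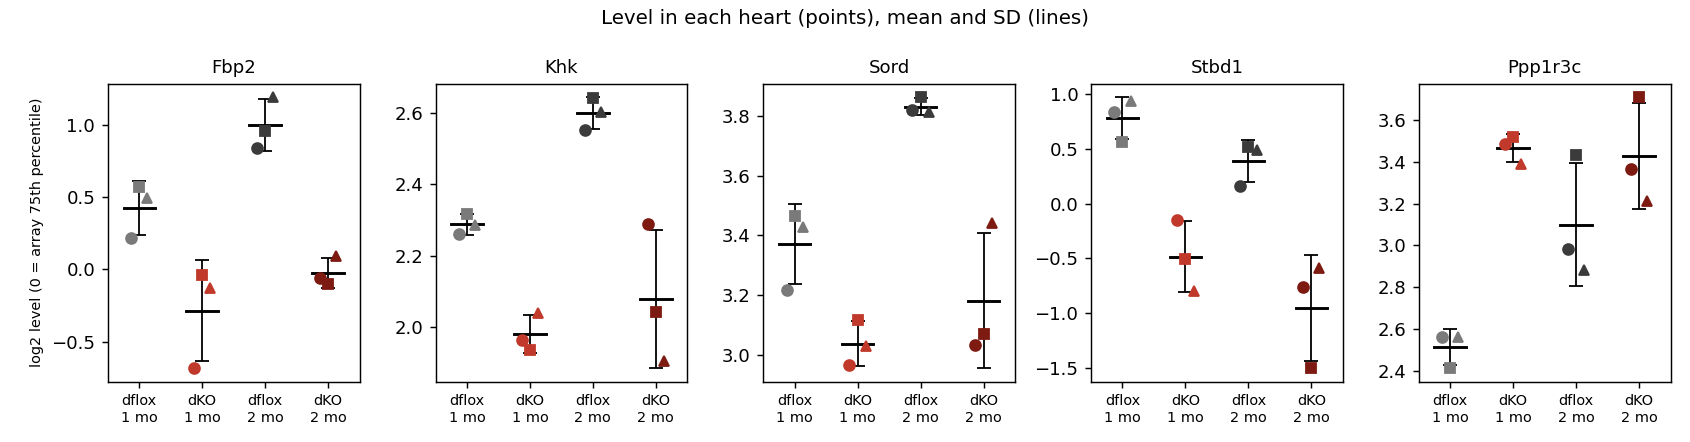
Log2 level of Fbp2, Khk, Sord, Stbd1 and Ppp1r3c in each heart, by group, with mean and SD (n = 3); circles, squares and triangles are replicates 1, 2 and 3, dKO is cardioGRMRdKO, and each panel has its own scale. Fbp2, Khk, Sord and Stbd1 do not overlap between genotypes at either age, and Ppp1r3c overlaps at 2 months.

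In the list of 23 other glycogen genes, 1 was called higher and 1 lower at 1 month, and 1 lower at 2 months, where 0.98% and 2.31% of all genes were called. Stbd1, a glycogen-binding protein, was at 0.84, 0.57 and 0.94 against -0.15, -0.50 and -0.80 at 1 month and at 0.16, 0.52 and 0.49 against -0.76, -1.50 and -0.59 at 2 months. The differences were -1.26 (adjusted p = 0.044) and -1.34 (adjusted p = 0.019), and 2 other probes gave smaller ones, -0.44 and -0.58 at 1 month and -0.62 and -0.92 at 2 months. The 1-month call held in 9 of 25 other analyses, and was lost without any single 1-month heart. The 2-month call held in 20 of 25, and was lost without dflox 2 month replicates 2 or 3. It was also lost without slide 3 (-0.84), which left 1 dflox heart at 2 months. With the slide as a fixed term both calls were lost (adjusted p = 0.10 and 0.059), as they were with the mean of its probes (-0.76 and -0.96, adjusted p = 0.41 and 0.15). The 1-month call was also lost with the place (-0.82, adjusted p = 0.79) or the airway marker level (-0.86, adjusted p = 0.46) as a term and without the filter on dim probes (adjusted p = 0.10). Ppp1r3c, a glycogen-targeting subunit of protein phosphatase 1, was at 2.56, 2.41 and 2.56 against 3.49, 3.52 and 3.39 at 1 month (difference 0.95, SE 0.16, adjusted p = 0.023), and at 2 months its difference of 0.33 had overlapping hearts. That 1-month call was lost with the airway marker level as a covariate (0.63, adjusted p = 0.27), with the place (0.88, adjusted p = 0.46) or the slide (0.88, adjusted p = 0.068) as a term, without the filter on dim probes (adjusted p = 0.064), and without any single 1-month heart (0.90 to 0.99 over all hearts left out). In the average over both ages Pgm5, a phosphoglucomutase relative, was higher (0.61, adjusted p = 0.020), a call that held in 17 of 25 other analyses.

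Among 15 measured genes of pyruvate and lactate handling, 1 was called higher at 2 months (2.31% of all genes were called either way). This was Me2, the mitochondrial malic enzyme, at -0.93, -1.06 and -1.07 against -0.56, -0.32 and -0.23 (difference 0.65, adjusted p = 0.019), and a second probe gave 0.76. The call held in 17 of 25 other analyses. It was lost under normexp (0.45, adjusted p = 0.12), without the filter on dim probes (adjusted p = 0.058) and with the replicate number as a block (adjusted p = 0.053). Leaving out dflox 2 month replicates 2 or 3 or cardioGRMRdKO 2 month replicates 2 or 3 lost it too. The fit without slide 3 also lost it (0.53, 1 dflox heart at 2 months). Pdk4, the kinase that shuts pyruvate dehydrogenase in fasting, was at 3.82, 5.22 and 4.19 against 4.40, 5.56 and 5.45 at 1 month and at 4.89, 5.04 and 5.20 against 5.87, 5.54 and 6.31 at 2 months (differences 0.73 and 0.86, adjusted p = 0.67 and 0.32). The 2-month hearts did not overlap. Of 12 genes of the pentose phosphate and hexosamine branches, 0 were called at either age (0.98% and 2.31% of all genes were).

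Of 28 upstream regulators, 0 were called at 1 or 2 months (0.98% and 2.31% of all genes were). In the average, where 4.5% of all genes were called, 1 was higher and 1 lower. These were Prkab2, a regulatory subunit of AMP kinase (0.47, limma adjusted p = 0.035), and Akt1, an insulin-signalling kinase (-0.31, adjusted p = 0.031). These calls held in 12 and 8 of 25 other analyses. Klf15, a transcription factor that is a known glucocorticoid target, was at 2.86, 2.70 and 2.86 against 2.27, 2.09 and 1.96 at 1 month and at 2.66, 3.26 and 2.94 against 2.49, 2.62 and 1.35 at 2 months, without overlap (average -0.75, adjusted p = 0.076). Hif1a, the hypoxia factor that drives glycolytic genes, had an average difference of 0.47 (adjusted p = 0.11), Ppargc1a, a coactivator of mitochondrial genes, one of -0.59 (adjusted p = 0.14), and the AMP kinase subunits Prkaa2 and Prkag2 had 0.11 and 0.20.

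For comparison, 31 genes of fatty acid uptake and oxidation had a median difference of -0.18 at 1 month and -0.35 at 2 months, with 29 and 28 of 31 below 0, where 23 and 22 of the 33 glucose genes were. Over all genes, 49.7% were above 0 at 1 month and 37% at 2 months. Under quantile normalization 26 and 24 of the 31 fatty acid genes were below 0 (medians -0.13 and -0.13) and 18 and 13 of the 33 glucose genes, so that most glucose genes were above 0 at 2 months. Cardiomyocyte markers were below 0 for 9 of 10 genes at both ages (medians -0.095 and -0.13). Of other cell types, 9 and 8 of 10 endothelial and 10 and 7 of 10 fibroblast markers were below 0 at 1 and 2 months. For smooth muscle and pericytes these were 7 and 6 of 9, and for atrial cardiomyocytes 9 and 7 of 9. For brown and white fat they were 9 and 2 of 9, with mean levels from 0.76 to 3.61 over the hearts. Erythroid and blood markers were below 0 for 5 and 1 of 7. For neurons and Schwann cells the counts were 5 and 4 of 5, and for lung alveolus 2 and 1 of 5. Macrophage markers were above 0 for 12 of 13 at both ages (medians 0.22 and 0.22). The part of these cell types in the differences was not tested. In the fatty acid list 0 were called at either age (0.98% and 2.31% of all genes were). Hadh and Acaa2, enzymes of the β-oxidation spiral, were lower in the average (-0.36 and -0.41, limma adjusted p = 0.034 and 0.028). In that comparison 4.5% of all genes were called. The Hadh and Acaa2 calls held in 7 of 24 and 14 of 25 other analyses. The difference between the 2 lists was not tested.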

How the data were processed

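RNA of 12 hearts was labelled from 500 ng of total RNA with Cy3 and read on Agilent arrays. Per the submitters' processing notes, Agilent Feature Extraction 9.5 made the deposited files; per the file headers each spot carries a background-subtracted linear intensity (processed signal). The deposited series matrix was checked to hold the same intensity at 100% of spots. Control and outlier spots were left out, log2 was taken of the deposited intensity, each array's 75th percentile was subtracted and spots of a probe were averaged. The percentile was taken without outlier spots, a choice made after call counts under both versions had been seen. Of 41174 probes, 26979 passed the filter (a whole group of 3 arrays well above background), and the brightest probe stood for its gene (18259 genes). A model of 4 group means was fitted with limma 3.58.1 (R 4.3.3), two-sided, with Benjamini-Hochberg adjustment over all genes within a comparison and calls under 0.05 (prior degrees of freedom 2.22, residual 8). An exact permutation test of 3 against 3 cannot go below 0.1. Replicates correlated at 0.972 to 0.991, and the number of hearts limits the precision. The fit was tested on simulated data with independent noise and no slide or place effect. Of genes with a true difference of 0.5 (log2), 14% were called at 1 month and 8% at 2 months. With a true difference of 2, 88% were called at both ages. False calls numbered 16 at 1 month and 4 at 2 months. Members and lists were chosen with earlier results of these data known. Values are given by heart for called genes, the 5 largest average differences each way, the 4 largest age differences each way in dflox hearts and 9 genes set by name; of list genes, called ones and 8 set by name are given, and a few list genes are not reported here or counted in their lists. Promoter windows come from RefSeq (GRCm38.p6). Probe coordinates are on mm7; the annotation of that build was not used here. Alternatives covered normalization, background, filter, probe choice, slide, place, replicate number, airway markers, moderation and each heart left out.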

Additional observations from a re-analysis of the deposited data

How the results depend on the processing

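Pfkfb1 was the called gene at 2 months in every alternative run and at 1 month in all but those with the place on the slide or the airway marker level as a term, where 0 of 33 genes were called. For the average over both ages the count was 2, with Slc2a1 added, under the filter for all 12 arrays, slide as a fixed term, slide as a random block and eBayes with trend and robust prior. Leaving out each heart in turn kept Pfkfb1 called at 2 months. The fit without slide 3 left 1 dflox heart at 2 months, replicate 1, so its 2-month dflox level rests on that heart alone. Pdk1 had values in 2 cardioGRMRdKO hearts at 2 months, so a fit without 1 of these rests on 1 heart for Pdk1, and its calls are not counted. In the average the left-out hearts gave 1 to 2 called genes (Slc2a1 was added without cardioGRMRdKO 1 month replicate 1, 2 month replicate 1 or 2 month replicate 3). The age comparisons and the difference between ages gave 0 of 33 throughout. The median difference at 2 months, -0.090, was 0.058 under quantile normalization and -0.18 within slide 3, and the cause was not tested; the other settings kept both medians within the spread between replicates. The series matrix copies the processed signal, so that alternative tested nothing and is not counted. With the percentile over all spots, outliers included (an alternative chosen after seeing the data), 1 of 33 genes was called at each age, and 173 and 407 of all genes against 179 and 422. Residuals of same-numbered hearts of different groups correlated at -0.49 to 0.55 (median -0.010), and those of differently numbered hearts at -0.48 to 0.44 (median -0.009). By slide, the correlations were -0.17 to 0.55 for hearts on the same slide and -0.49 to 0.26 for hearts on different slides. The groups were not spread evenly over the slides. With the number as a replicate block 1 of 33 genes was called at each age, and 136 and 326 of all genes.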
